A study of Homo sapiens with 22 samples.

Results

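Among the CTCF binding sites of K562 cells, 1582 had a CTCF peak in each of 6 CTCF libraries but no peak of the cohesin subunit Rad21 and no peak of the acetylated histone H3K27ac in any library. They are called members here, a name for the peak calls alone. They were chosen from the authors' table of 66168 CTCF regions, of which 65346 lie on chromosomes 1 to 22 and X. Of those, 12691 overlapped a CTCF peak in all 6 libraries by at least 1 bp, and 9165 of these overlapped no H3K27ac peak. The members are the ones among the 9165 that also overlapped no peak in any of the 4 Rad21 libraries. The members were thus chosen by CTCF, Rad21 and H3K27ac peak calls, and values of those 3 marks at them are given as descriptions, including the calls of the fits over whole tables, from which nothing is read about the members. No Jun library took part in the choice.

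K562 is a human leukemia cell line that can be driven towards a megakaryocyte-like state. Cells of wild-type genotype were treated with 25 nM PMA, a phorbol ester that activates protein kinase C, for 0, 6 or 72 h and were then fixed with 1% formaldehyde. CUT&RUN, which releases and sequences the DNA next to an antibody's target, was done for H3K27ac, CTCF and Jun at 0, 6 and 72 h and for Rad21 at 0 and 72 h, with 2 libraries for each antibody and time and 22 in all. The labels do not say whether the 2 libraries of a group came from separate cultures, so p-values measure the spread between these libraries only, which may be technical.

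CTCF is a zinc finger protein that binds a long DNA motif in one orientation. Cohesin, a ring made of SMC1A, SMC3, RAD21 and a STAG subunit, extrudes loops of chromatin and is halted by CTCF facing it, so most well-studied loop anchors carry both proteins. NIPBL with MAU2 loads the ring, WAPL with PDS5A or PDS5B releases it, and ESCO1 and ESCO2 acetylate SMC3 to make it stay. Jun is a subunit of AP-1, a transcription factor that responds to phorbol esters.

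DNA letters could be shown for the members that fall on a RefSeq promoter window (GRCh38.p14; 250 bases before to 50 after a gene start). Of the 1582 members, 46 (2.91%) overlapped 52 such windows, and 12 windows (23.1%) held the core of the CTCF motif on either strand (CCA, any 2 bases, AG, any 2 bases, GGC; it was the only motif searched). The core was in 9 of 37 windows (24.3%) at stable CTCF sites with Rad21, in 90 of 966 (9.32%) at acetylated stable sites and in 844 of all 34961 windows (2.41%). The sequences below are shown because they carry that core, which stands in capitals. They are written 5′ to 3′ on the gene's strand, so a core on the other strand appears as its reverse complement. LOC105375567 (chr7:150877242-150877333, minus strand) was the only one of the 6 promoter members with the highest CTCF level to hold the core. The others are ERMN, for a protein of myelinating cells (chr2:157327713-157327766, minus strand), SLC14A2, for a urea transporter (chr18:45212874-45212965, plus strand), CCDC175 (chr14:59576821-59576912, minus strand), MC5R, for a melanocortin receptor (chr18:13824019-13824110, plus strand), and the RNA gene LOC105372694 (chr20:58179683-58179774, minus strand).
LOC105375567: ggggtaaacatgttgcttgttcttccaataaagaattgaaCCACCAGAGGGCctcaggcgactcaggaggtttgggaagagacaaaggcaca
ERMN: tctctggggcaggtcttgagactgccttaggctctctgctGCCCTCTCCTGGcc
SLC14A2: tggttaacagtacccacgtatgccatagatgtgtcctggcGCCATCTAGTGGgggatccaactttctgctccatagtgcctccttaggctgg
CCDC175: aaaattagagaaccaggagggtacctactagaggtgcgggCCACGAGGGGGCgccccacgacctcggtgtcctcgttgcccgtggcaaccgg
MC5R: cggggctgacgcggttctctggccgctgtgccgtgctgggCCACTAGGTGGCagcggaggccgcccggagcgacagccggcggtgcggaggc
LOC105372694: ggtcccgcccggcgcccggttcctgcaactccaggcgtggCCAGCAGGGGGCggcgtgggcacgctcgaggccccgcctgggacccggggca

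The core was read once in each of these sequences, as CCACCAGAGGGC in LOC105375567, as GCCATCTAGTGG in SLC14A2 and as CCACTAGGTGGC in MC5R. A match describes these letters only, and a window without one says nothing of binding there. The CTCF level of the LOC105375567 region (chr7:150876327-150877506) was 57.0 and 77.7 CPM per kb at 0 h, 42.2 and 46.9 at 6 h, then 35.0 and 40.1 at 72 h. CPM is a count scaled to its library's total in the table, with TMM factors between libraries, and CPM per kb divides it by the region's width. At the MC5R region (chr18:13823939-13824505) it was 26.97 and 32.5 at 0 h, 21.7 and 15.1 at 6 h, then 24.0 and 16.8 at 72 h. Both 0 h libraries were the highest of the 6 in each region. The other 5 promoter members of highest CTCF level, at LOC101929255, LOC124904422, KCNH1 (a potassium channel), LINC02827 and LOC105378724, held no core in their windows.

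Total counts per library in the tables ran from 2553677 to 6068421 for CTCF, 4766421 to 18883962 for Jun, 4398797 to 7285286 for Rad21 and 12634261 to 27266241 for H3K27ac. Peak numbers ran from 18043 to 40805 for CTCF, with the fewest in the first 6 h library, and from 25687 to 59005 for Rad21, with the most in the second 0 h library. These 2 libraries carried much of the choice: 2808 sites would qualify without the first 6 h CTCF library and 2456 without the second 0 h Rad21 library. The sites' membership rests on which peaks were called, and 337 sites qualified when 50% of the region had to be covered by a CTCF peak in every library, and 424 when each CTCF peak needed a −log10 q of at least 10. Just outside the CTCF threshold, 1796 sites had a CTCF peak in 5 of the 6 libraries and no Rad21 or H3K27ac peak, with library medians of 20.05 to 25.1 CPM per kb.

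The label of these sites speaks of peaks, not of an absence of Rad21 reads. Of the 1582 members, 530 (33.5%) overlapped 549 regions of the Rad21 table, of whose 109111 regions 18948 overlap no library's peak. At those regions the median Rad21 level was 12.6 and 11.6 CPM per kb in the 0 h libraries and 10.7 and 11.3 in the 72 h libraries. Over the whole Rad21 table the library medians were 9.70 to 11.2. The other 1052 members overlapped no region of that table, so no Rad21 count is given for them here.

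Stable sites without acetylation formed a graded series by the number of Rad21 libraries with a peak: 1582 had none, 1946 had 1, 2273 had 2, 1738 had 3 and 1626 had all 4. The last are called cohesin sites. Where 1 Rad21 library had a peak, it was the second 0 h library at 874 sites (44.9%), the first 0 h library at 763 (39.2%), the first 72 h library at 207 (10.6%) and the second 72 h library at 102 (5.24%). These sites lie just outside the Rad21 threshold. Their median Rad21 level was 12.7 and 12.3 CPM per kb at 0 h and 9.67 and 9.66 at 72 h. This was close to that of the 530 members with a Rad21 region, and below it in the 72 h libraries. The level was 22.8 and 21.0 at 0 h and 18.2 and 18.2 at 72 h at cohesin sites.

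**Figure D1:**
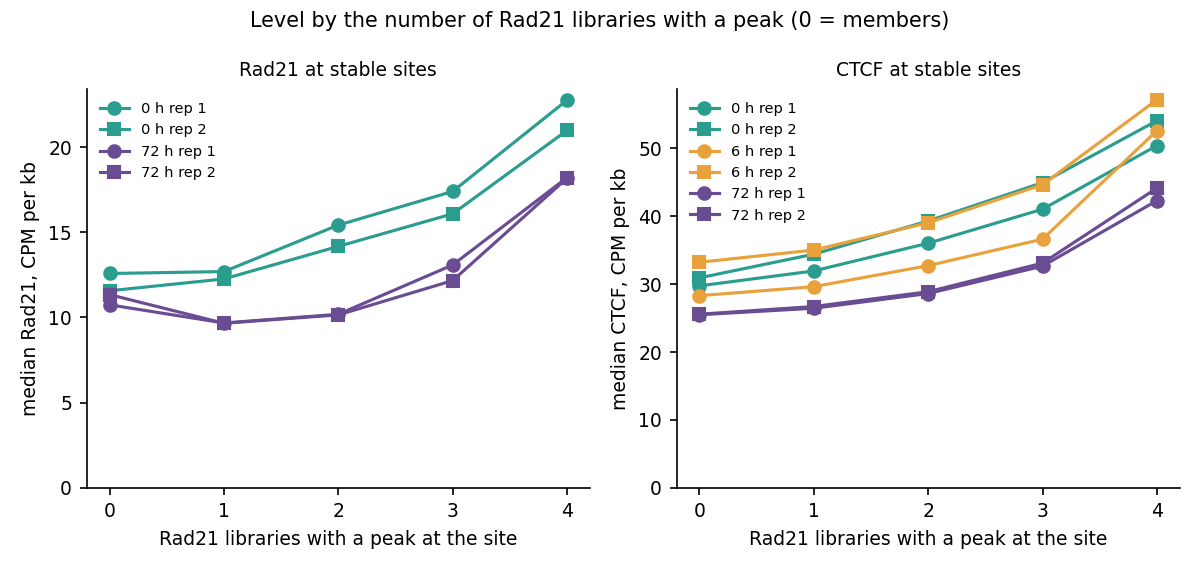
Median level in CPM per kb of region (vertical axes, from 0) against the number of Rad21 libraries with a peak at the site (horizontal axes), for Rad21 in 4 libraries (left) and CTCF in 6 (right); each line is 1 library. The members are at 0. Their median Rad21 level of 10.7 to 12.6 covers only the 530 of 1582 that overlap a region of the Rad21 table. The CTCF level of all 1582, 25.5 to 33.2, is the lowest of the 5 classes in every library.

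The CTCF level of the members was lower than that of cohesin sites, which is given as a description since the same CTCF libraries took part in the choice. The mean CTCF level over the 6 libraries ran from 13.3 CPM per kb to 221 across members, with a median of 28.7 and quartiles of 24.1 and 35.4. By library the members' median was 29.8 and 30.9 CPM per kb at 0 h, 28.3 and 33.2 at 6 h, then 25.5 and 25.6 at 72 h. At cohesin sites it was 50.4 and 54.1 at 0 h, 52.6 and 57.2 at 6 h, then 42.3 and 44.1 at 72 h. Members were lower in 6 of 6 libraries, and the lowest median of cohesin sites was above the highest of members.

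The difference averaged −0.79 ± 0.054 on the log2 scale (SD, n = 6 libraries; range −0.89 to −0.73), or 1.73-fold lower. Both sets had to hold a CTCF peak in every library, so this compares levels above that common floor. In these bulk samples, fewer bound cells and less binding per cell cannot be told apart, and no level was corrected for the number of DNA copies.

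CTCF was higher at each step of the Rad21 series in every CTCF library. Sites with 1 Rad21 library had medians of 26.5 to 35.0 CPM per kb over the 6 CTCF libraries, those with 2 had 28.6 to 39.3 and those with 3 had 32.7 to 45.0. Against the sites with 1 Rad21 library, a comparison added after the data were seen, the members' median was lower by −0.09 ± 0.037 (log2, SD, n = 6 libraries), in 6 of 6 libraries. Among the members, the 530 with a region in the Rad21 table had library medians of 26.1 to 35.1 CPM per kb and the 1052 without one had 25.0 to 32.4.

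**Figure D2:**
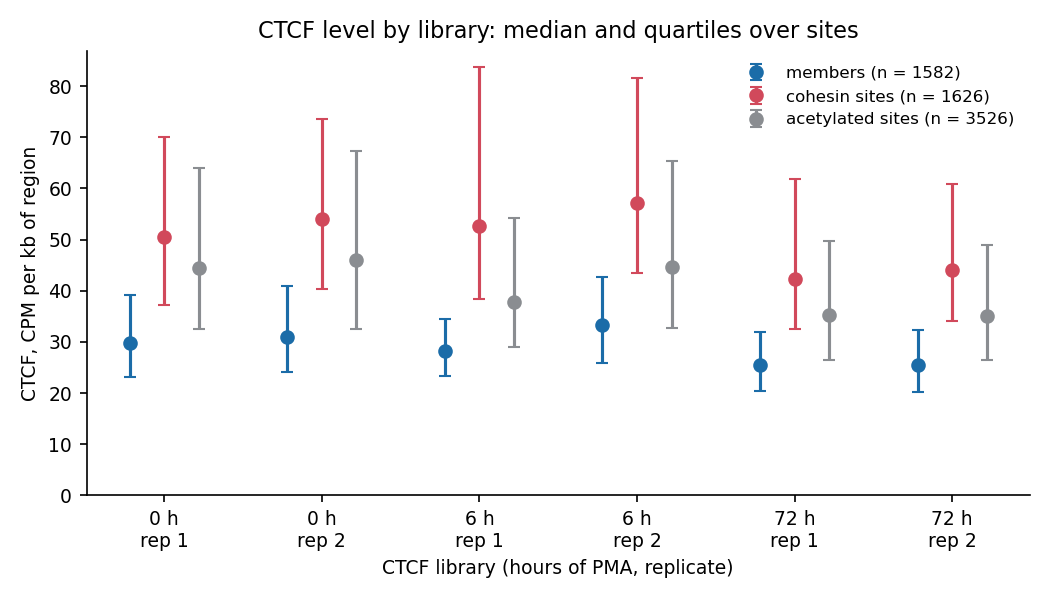
CTCF level in CPM per kb of region (vertical axis, from 0) in each of the 6 CTCF libraries (horizontal axis): points are medians over sites and bars run from the lower to the upper quartile, for 1582 members, 1626 cohesin sites and 3526 acetylated sites. The members' medians of 25.5 to 33.2 lie below those of both other sets in all 6 libraries.

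The strength of the CTCF peaks that the rule used is given as a description. In each CTCF peak list, the members' median fold enrichment was 6.30 to 8.95 and their median −log10 q was 9.45 to 23.1. Cohesin sites had 8.69 to 11.6 and 22.9 to 46.1, and acetylated stable sites 7.49 to 10.7 and 15.6 to 36.9. The members' peaks were 244 to 442 bp wide at the median and the cohesin sites' 389.5 to 501. These scores are the authors' and describe peaks within a list.

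The 6 members of highest CTCF level had means of 133 to 221 CPM per kb. At chr19:41706782-41707244, 1.381 kb from CEACAM5, the gene of carcinoembryonic antigen, CTCF stood at 287 and 311 CPM per kb at 0 h, 183 and 234 at 6 h, then 153 and 158 at 72 h, a mean of 221. A region in the immunoglobulin lambda locus IGL (chr22:22463071-22463561) had 148 and 162 at 0 h, 153 and 195 at 6 h, then 169 and 190 at 72 h. The 2 regions differ in course: the first had both 72 h libraries lowest, while in the second the 72 h libraries overlapped the 6 h ones.

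The next 4 by mean level were chr9:998545-999026, 6.812 kb from the transcription factor gene DMRT3 (167 CPM per kb), chr16:4402435-4402868 (166) and chr16:4404407-4404681 (133), both in the span shared by CORO7, a coronin, and CORO7-PAM16, and chr10:43205101-43205387 in RASGEF1A, a Ras exchange factor (155). All 6 have means above 4 times the members' median of 28.7. The level divides by width, and all 6 regions (275 to 491 bp) are narrower than the members' median of 586.5 bp. Uncorrected reads per region give a different order. Some wider members not named here held more reads in every CTCF library than the RASGEF1A and chr16:4404407-4404681 regions.

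Jun was rarely found at the members before PMA and remained rare afterwards. At 0 h, 11 members (0.695%) overlapped a Jun peak in the first library and 18 (1.14%) in the second. At 6 h the counts were 13 (0.822%) and 18 (1.14%), and at 72 h they were 83 and 83 (5.25%, exact 95% binomial interval 4.20% to 6.46%, counting error only). Both libraries of a time shared a peak at 7 members at 0 h, 5 at 6 h and 56 at 72 h, and 131 members (8.28%) had a Jun peak in at least 1 library.

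The mean share was 0.917% ± 0.313 at 0 h, 0.980% ± 0.223 at 6 h and 5.25% ± 0 at 72 h (SD, n = 2). Both 72 h shares were above all the other four. With 2 libraries a time the exact permutation test cannot go below p = 0.0667, so it says nothing at a threshold of 0.05 (p = 0.2). The 72 h Jun libraries were also the deepest, with 92329 and 99102 peaks against 23946 to 35376 in the other four, and the part of depth in the higher share was not tested.

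At cohesin sites, Jun peaks lay on 31.2% and 33.6% of sites at 0 h, 28.7% and 27.9% at 6 h, then 42.4% and 41.7% at 72 h. Members were lower in 6 of 6 libraries, by 31.9 ± 4.33 percentage points (SD, n = 6; range 26.7 to 37.2). The exact permutation test by sign flips, two-sided, gave p = 0.03125, the smallest that 6 libraries allow, and 0.03125 after Benjamini-Hochberg adjustment. The low share is not particular to members, however. With 1 Rad21 library the share ran from 0.617% to 7.09%, with 2 from 1.19% to 8.84% and with 3 from 1.899% to 14.2%. Against the sites with 1 Rad21 library, members were lower in 5 of 6 libraries, by −0.771 ± 0.743 points (range −1.84 to 0.205; exact sign-flip p = 0.0625). The cohesin sites, with a peak in all 4 Rad21 libraries, had the highest share of the 5 classes in every library, at least 27.9%.

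**Figure D3:**
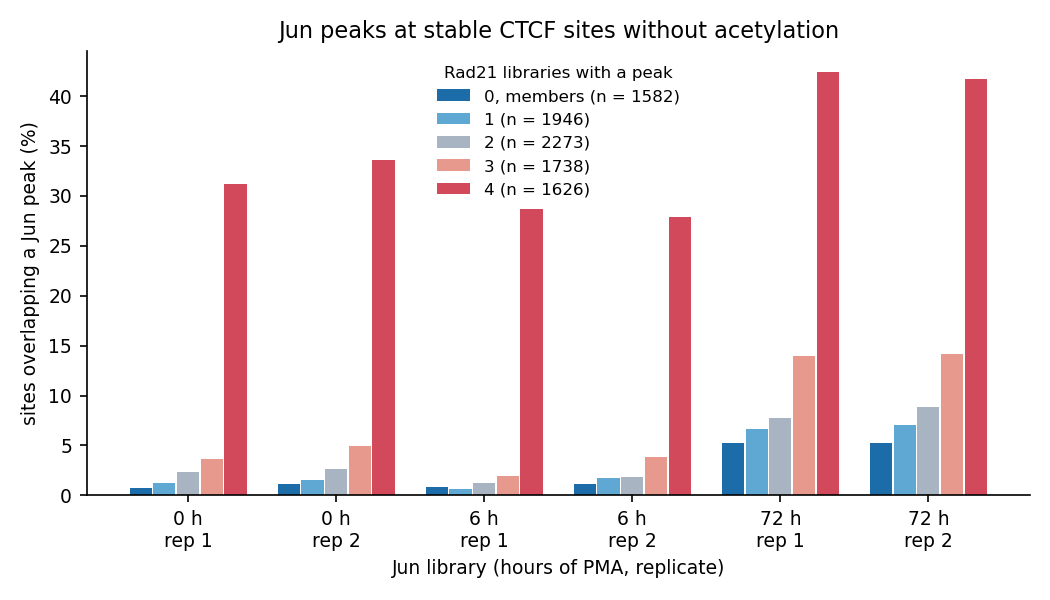
Percent of stable, unacetylated CTCF sites overlapping a Jun peak (vertical axis, from 0) in each Jun library (horizontal axis), by the number of Rad21 libraries with a peak at the site; bars are shares of sites in 1 library. Members (dark blue) stay between 0.695% and 5.25%, and sites with Rad21 in all 4 libraries (red) between 27.9% and 42.4%.

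Jun levels were compared at the Jun-table regions that the sites overlap: 183 regions at 180 members and 1056 at 1035 cohesin sites. Median Jun CPM per kb at the members' regions was lower in 6 of 6 libraries, by −0.94 ± 0.51 on the log2 scale (SD, n = 6; range −1.52 to −0.29; 1.92-fold lower on average; exact sign-flip p = 0.03125, adjusted 0.03125). The gap differed by time. Members had 5.21 and 4.84 CPM per kb at 0 h, 6.17 and 5.47 at 6 h, then 5.10 and 5.15 at 72 h. Cohesin sites had 13.5 and 14.4 at 0 h, 13.6 and 11.1 at 6 h, then 6.61 and 6.29 at 72 h, where the gap was smallest. Against sites with 1 Rad21 library the difference was −0.04 ± 0.14 (range −0.24 to 0.08), lower in 2 of 6 libraries (exact sign-flip p = 0.5625).

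Changes of Jun over time were read from edgeR's quasi-likelihood fit of the whole Jun table, with Benjamini-Hochberg adjustment over 132947 regions and a threshold of 0.05. Of the members' 183 regions, 164 passed the filter on low counts. Between 0 and 72 h, 19 rose and 25 fell, 26.8% of those tested, against 53.7% of all tested regions (28% rose and 25.7% fell). Their median log2 change was 0.07, and 0.17 over all regions. At 6 h against 0 h, 15 rose and 8 fell (14.02%, against 25.3% of all, 13.1% up and 12.2% down), with a median of 0.18 and 0.06 over all regions. Between 6 and 72 h, 6 rose and 13 fell (11.6%, against 26.2% of all, 12.7% up and 13.5% down), with a median of −0.18 and 0.02 over all regions.

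The members' Jun regions held fewer reads than most: their median mean count was 22.8 against 38.5 over all tested regions. Of 45710 tested regions within the members' quartiles of mean count (16.2 to 36.6), 41.0% were called at 72 h against 0 h. At the Jun regions of cohesin sites, 21 rose and 613 fell of 1035 at 72 h against 0 h, with a median of −1.28. That fall was read with TMM only, and other scalings shift the Jun changes, as given below. The share of cohesin sites with a Jun peak, given above, was higher at 72 h than at 0 h. The 3 contrasts of Jun between times share libraries and are not independent of each other.

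The balance of rises and falls at members depended on the scaling. Of the calls at 72 h against 0 h, 43.2% were rises with TMM, 77.6% of 67 with total counts and 24.0% of 25 with DESeq2. For 6 h against 0 h the shares were 65.2%, 79.3% and 41.7%, and at 72 h against 6 h 31.6%, 73.7% and 25.0%. Total counts moved the median of all Jun regions to 0.73, 0.26 and 0.39 in the 3 contrasts, and turned the members' median at 72 h against 6 h from −0.18 to 0.19; with DESeq2 the members' median at 72 h against 0 h turned from 0.07 to −0.02. Single libraries also moved the counts: 28 calls at 72 h against 0 h were left without the second 0 h library, 24 without the first and 22 without the second 72 h library. For 6 h against 0 h, 13 and 11 were left without the first and the second 0 h library and 15 and 13 without the first and the second 72 h library. For 72 h against 6 h, 3 and 1 were left without the first and the second 72 h library.

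Among the rises, Jun at chr5:142880882-142881606 in ARHGAP26, for a GTPase activating protein, had 7 and 13 counts at 0 h, 19 and 17 at 6 h, then 166 and 180 at 72 h. The log2 change at 72 h against 0 h was 2.42 ± 0.35 (SE; edgeR quasi-likelihood adjusted p = 7.11e-06). In UBE2R2-AS1 (chr9:33813870-33814334), an antisense RNA gene, counts were 8 and 13, then 27 and 28, then 131 and 143, a change of 2.01 ± 0.35 (edgeR quasi-likelihood adjusted p = 5.47e-05). Neither region's 72 h values overlapped its 0 h values, as the choice of regions required. In UBE2R2-AS1 the 6 h level (6.13 and 5.11 CPM) overlapped the 72 h level (6.23 and 6.07 CPM).

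A further rise was at chr14:20858198-20858658, 32.726 kb from RNASE3, which encodes an eosinophil ribonuclease. Counts there were 3 and 3 at 0 h, 0 and 8 at 6 h, then 44 and 40 at 72 h. The region needed its 72 h libraries to pass the filter on low counts, so its p is not independent of the rise. Its log2 change of 2.097 ± 0.75 (edgeR quasi-likelihood adjusted p = 0.0228) was not called by DESeq2 or when any 1 of the 0 h or 72 h libraries was left out.

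The strongest fall was at chr22:37545217-37545621, 14.858 kb from CDC42EP1, an effector of the GTPase CDC42. Jun counts there were 80 and 79 at 0 h, 11 and 19 at 6 h, then 22 and 36 at 72 h, in libraries of unequal depth. The log2 change at 72 h against 0 h was −3.14 ± 0.30 (edgeR quasi-likelihood adjusted p = 5.02e-08). At chr5:178838841-178839107, 20.845 kb from the zinc finger gene ZNF354B, counts were 36 and 22, then 4 and 2, then 15 and 13, a change of −2.72 ± 0.50 (edgeR adjusted p = 1.08e-04). At chr2:65169235-65169504, 39.128 kb from RAB1A, a GTPase of transport from the endoplasmic reticulum, they were 28 and 35, then 14 and 6, then 15 and 16, a change of −2.69 ± 0.46 (edgeR adjusted p = 5.50e-05). The chr5 and chr2 regions needed their 0 h libraries to pass the filter on low counts. Their p-values are thus not independent of the falls. All 3 falls kept their call in every alternative that could test them.

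**Figure D4:**
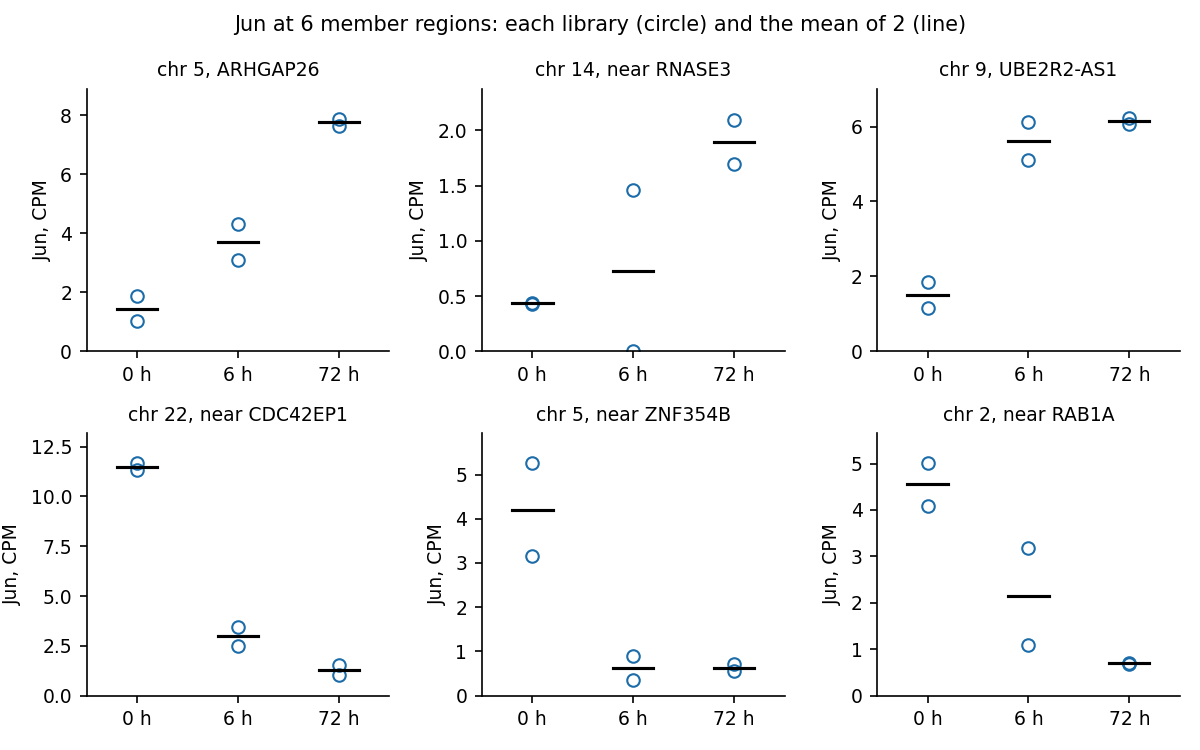
Jun level in CPM (vertical axes, from 0, each on its own scale) at 0, 6 and 72 h of PMA (horizontal axes) for the Jun regions at members with the 3 largest rises (top) and the 3 largest falls (bottom) at 72 h against 0 h; circles are libraries and lines the mean of 2. Both 72 h libraries lie above both 0 h libraries in the top row and below them in the bottom row, as the choice of regions required.

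A Jun peak in all 6 libraries was present at 2 members, which are named for that after their values were seen. One lies in SMAGP, for a small membrane glycoprotein (chr12:51262655-51263194), where Jun in the overlapping region was 8.75 and 16.1 CPM at 0 h, 13.8 and 13.1 at 6 h, then 9.18 and 8.62 at 72 h. The other lies in TXK, a Tec family kinase (chr4:48109585-48110242), with 7.15 and 5.30 CPM at 0 h, 5.67 and 8.03 at 6 h, then 5.75 and 5.86 at 72 h. The 0 and 72 h values overlapped at both, and neither region was called at 72 h against 0 h (edgeR adjusted p = 0.0919 and 0.769).

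CTCF changes at the members are a description, since a peak at every time was required of them, and the calls below come from the fit over the whole table and are no test of the members. The members' median log2 change was −0.02 at 6 h and −0.29 at 72 h against 0 h and −0.26 at 72 h against 6 h, against medians of 0.02, 0.03 and −0.00 over all 58156 regions tested. At cohesin sites the change at 72 h against 0 h had a median of −0.30. With total counts in place of TMM the members' median at 72 h against 0 h was −0.06 and that of all regions 0.26. The members' changes ran from −1.70 to 1.68, and 49 of 1582 exceeded 2-fold. The edgeR fit called 67 at 72 h against 0 h (12 higher, 55 lower; 4.24%), where 6.79% of all regions were called, 4.07% higher and 2.72% lower. It called 1 lower at 6 h against 0 h (2.65% of all regions, 2.33% higher and 0.325% lower). Between 6 and 72 h it called 1 higher and 6 lower (2.18% of all regions, 0.449% higher and 1.73% lower).

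The count of 67 moved whichever library was left out, and each such fit has 1 library in a group. It was 2 and 0 without the first and the second 0 h library, 205 and 195 without the first and the second 6 h library and 4 and 3 without the first and the second 72 h library. Without the second 0 h library 177 members had an unadjusted edgeR p under 0.05. The direction of the calls depended on the settings: 12 of the 67 were higher (17.9%), against 17 of 29 (58.6%) with total counts, 3 of 19 with DESeq2 and 15 of 22 with a mean count of at least 50. Between 6 and 72 h, 1 of 7 calls was higher, against 18 of 19 with total counts and 5 of 6 with a mean count of at least 50, and the members' median turned from −0.26 to 0.14 with total counts. The first 6 h library also moved the calls at 72 h against 6 h, to 73 when it was left out; they were 4 without the second 0 h library and 1 without either 72 h library. At 6 h against 0 h, 6 and 25 were called without the first and the second 6 h library. In the authors' deposited table, all 1582 members carry the label static, as do 65340 of the 66168 regions (98.7%).

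Large CTCF gains at 72 h were in INHBA-AS1 and PSG7. In INHBA-AS1, an RNA gene antisense to an activin subunit gene (chr7:41711202-41712140), CTCF was 13.0 and 23.4 CPM per kb at 0 h, 15.9 and 13.9 at 6 h, then 52.5 and 61.8 at 72 h (log2 change 1.68). In PSG7, a pregnancy-specific glycoprotein gene (chr19:42930190-42930734), it was 15.4 and 20.5, then 30.9 and 26.1, then 42.3 and 44.1 (1.28). The 72 h libraries were the highest 2 in each.

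The largest losses were in PGAP3, near PNCK and in RCOR1. In PGAP3, which remodels GPI anchors (chr17:39672097-39672535), CTCF was 69.7 and 76.4 CPM per kb at 0 h, 59.7 and 66.7 at 6 h, then 24.7 and 20.5 at 72 h (−1.70). At chrX:153669067-153669493, 0.239 kb from the kinase gene PNCK, it was 90.7 and 93.8, then 50.03 and 67.6, then 27.5 and 35.5 (−1.53). In RCOR1, a corepressor subunit (chr14:102694609-102695025), it was 45.2 and 56.2, then 33.4 and 36.1, then 17.7 and 18.5 (−1.47). In all 3 the libraries of the 3 times did not overlap, and 6 h lay between 0 and 72 h. Each of these 5 regions lost its call when 1 of at least 2 libraries was left out.

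Rad21 at members was likewise described only. Of the 549 Rad21-table regions at members, 540 were tested, and 8 were called higher and 12 lower at 72 h against 0 h (3.70%), where 23.3% of all tested Rad21 regions were called, 15.4% higher and 7.91% lower. Their median log2 change was −0.20, and −0.05 over all regions. With total counts 5 were higher and 30 lower, and with DESeq2 2 were higher and 1 lower. The count of calls was 6 and 4 without the first and the second 72 h library. The highest Rad21 levels at members were both in IGL: at chr22:22809992-22810269 Rad21 was 34.5 and 34.9 CPM per kb at 0 h and 43.9 and 46.1 at 72 h, and at chr22:22745605-22745816 it was 33.4 and 43.8 and then 33.0 and 46.2. Per kb these lie above the cohesin sites' median of 18.2 to 22.8, although no Rad21 peak overlapped those members. Both regions are narrow (278 and 212 bp), and uncorrected reads per region give a different order. The second region held 44 to 52 reads by library, fewer than the cohesin sites' library medians of 60 to 87. Reads in the first region fell short of those medians before PMA (61 and 46, medians 87 and 60). After 72 h of PMA they exceeded them (82 and 68, medians 75 and 60).

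For H3K27ac, 29 members overlapped 30 regions of the H3K27ac table without overlapping a peak. The median there was 0.869 to 1.14 CPM by library, against 2.21 to 3.40 over all 95436 regions.

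Distances to the nearest cohesin and acetylation peaks varied widely among members. The nearest Rad21 peak of any library was at a median of 8917.5 bp (quartiles 3449.5 and 22469), within 1 kb for 130 members (8.22%) and beyond 100 kb for 44. The nearest H3K27ac peak was at a median of 14682.5 bp for members and 10215.5 bp for cohesin sites. It was within 1 kb for 106 members and beyond 100 kb for 178. The next stable CTCF site was 41533 bp away at the median for members and 39191 bp for cohesin sites. As the rule removed overlapping peaks, a distance above 0 is part of the choice.

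**Figure D5:**
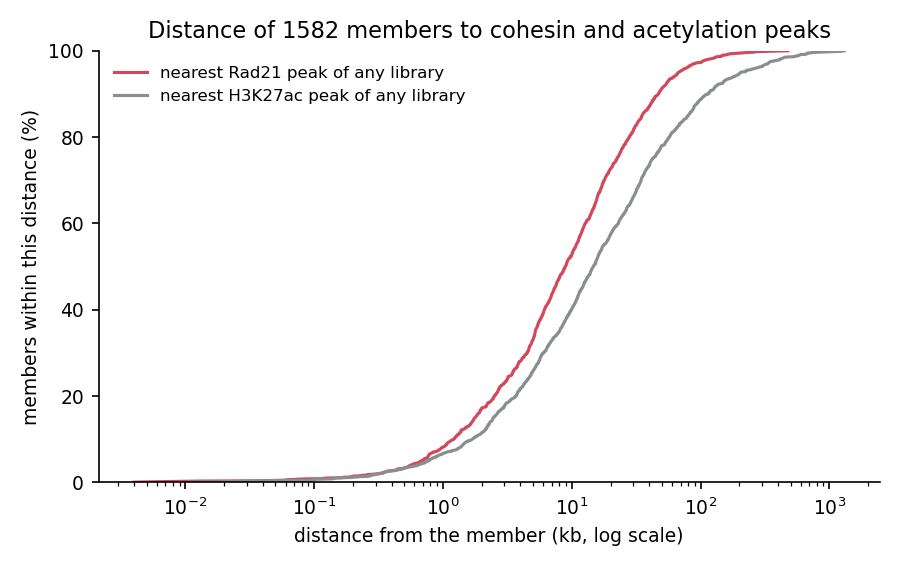
Cumulative percent of the 1582 members (vertical axis) with a Rad21 peak (red) or an H3K27ac peak (grey) of any library within the distance on the horizontal axis (kb, log scale). The medians are 8917.5 bp for Rad21 and 14682.5 bp for H3K27ac, and 8.22% of members have a Rad21 peak within 1 kb.

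The members were 586.5 bp wide at the median and the cohesin sites 651 bp. Of the members, 980 (61.9%) lay in the span of a RefSeq gene and 776 (49.1%) in that of a protein-coding gene. For cohesin sites these were 834 (51.3%) and 627 (38.6%), and for acetylated stable sites 2383 (67.6%) and 1914 (54.3%). Over all chromosomes, 1582 of 12691 stable sites were members. Members made up 22.2% of stable sites on chromosome 22 (57 members), 19.3% on X (48) and 18.7% on chromosome 20 (58). No share was corrected for the number of DNA copies. The smallest shares were 7.89% on chromosome 6 (67) and 8.37% on chromosome 4 (43).

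Most genes with a member held a single one. Of 744 protein-coding genes, 694 held 1, 43 held 2, 5 held 3 and 2 held 4 or more. GSE1, which encodes a nuclear coiled-coil protein, held 5 of its 12 stable sites as members and 1 as a cohesin site over 506.689 kb. VWF, the gene of von Willebrand factor, a platelet adhesion protein of megakaryocytes, held 4 members over 175.794 kb, which were all of its stable sites. In the IGL span of 896.838 kb, 8 of 44 stable sites were members, 6 were cohesin sites and 11 were acetylated.

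Gene lists of the tissue and of CTCF biology were searched for members within 5 kb. The megakaryocyte list of 16 genes had 5 members at 2 genes, VWF with 4 and NFE2. It had no cohesin site and 4 acetylated stable sites at 4 genes. At NFE2, a transcription factor of platelet formation (chr12:54294186-54294797), CTCF was 43.7 and 33.6 CPM per kb at 0 h, 29.1 and 33.9 at 6 h, then 39.5 and 35.6 at 72 h, with 0 h values that overlapped both later times. At the highest VWF member (chr12:6039921-6040434) it was 43.1 and 42.8, then 34.0 and 34.0, then 29.6 and 27.3, with no overlap between the times. The edgeR fit called no change between any of the times there. The erythroid list of 11 genes and the globin list of 10 had no member and no cohesin site, and 6 acetylated stable sites lay at 4 erythroid genes.

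Among 23 imprinted genes, whose domains include textbook CTCF insulators, 1 had a member: near H19, in the span of MRPL23 (chr11:2001997-2003015), with 38.8 and 48.5 CPM per kb at 0 h, 29.2 and 35.9 at 6 h, then 39.3 and 27.8 at 72 h. The 39 HOX genes, 53 clustered protocadherin genes and 59 cancer-testis genes had none. Of 517 ZNF genes, 10 had 12 members, against 5 sites at 5 genes for cohesin sites and 44 sites at 44 genes for acetylated stable sites. The highest of the 12 was in ZNF385A (chr12:54379314-54380261), with 62.4 and 52.1 CPM per kb at 0 h, 40.3 and 65.7 at 6 h, then 32.1 and 38.1 at 72 h. The next was in ZNF236 (chr18:76875093-76875781), with a mean of 35.9.

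The cohesin and CTCF machinery had a member at 1 of its 16 genes, PDS5B, a cohesin release and maintenance factor. The member lay 4.843 kb away (chr13:32581005-32581608), with 28.7 and 28.7 CPM per kb at 0 h, 28.4 and 28.3 at 6 h, then 21.0 and 21.4 at 72 h. The promoters of the machinery lost H3K27ac over PMA treatment. Of the 13 genes with an H3K27ac region within 1 kb of their start, 10 fell and none rose at 6 h against 0 h, with a median log2 change of −0.52, and 13 fell and none rose at 72 h against 0 h, with a median of −0.79. Over all 94865 tested regions, 26.3% and 38.1% were called lower in the same fits and 32.3% and 43.4% higher, with medians of 0.20 and 0.18. Those regions are not limited to promoters. The fall was not particular to the machinery, as all 7 tested erythroid promoters and 5 of 6 megakaryocyte ones also fell at 72 h against 0 h.

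Among the DNA-binding factors, CTCFL, the testis paralog of CTCF, had 97.1 and 98.7 CPM of H3K27ac at 0 h, 41.7 and 44.8 at 6 h, then 25.8 and 25.0 at 72 h (log2 change −1.95 ± 0.10 at 72 h, edgeR quasi-likelihood adjusted p = 5.86e-15). CTCF itself had 79.3 and 81.3, then 47.4 and 52.8, then 41.4 and 51.1 (−0.79 ± 0.11, edgeR adjusted p = 4.09e-07). Among ring subunits, SMC3 had 64.2 and 68.0, then 45.6 and 45.7, then 32.1 and 35.4 (−0.97), and STAG2 59.6 and 54.0, then 35.5 and 41.4, then 37.7 and 39.3 (−0.56). Both 72 h libraries lay below both 0 h libraries in all 4 genes. The releasers WAPL and PDS5B changed by −0.88 and −1.17 and the loader genes NIPBL and MAU2 by −0.67 and −0.79. RAD21, ESCO1 and ESCO2 had no such region and are without a value. With total counts 12 of the 13 were called lower at 72 h.

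Promoters of the erythroid list, which marks the untreated line, fell at all 7 tested genes at 72 h against 0 h (median −2.15), among them GATA1 (−0.86). Of 6 tested promoters of the megakaryocyte list, 1 rose and 5 fell. The rise was at THBS1, with 0 and 0.316 CPM at 0 h and 13.8 and 14.8 at 72 h (6.39). Among the falls was ITGA2B, a platelet integrin (−0.59). The other genes of both lists, which hold 11 erythroid and 16 megakaryocyte genes, had no such region. These lists check the labelled cells by acetylation only, since no RNA was analysed here.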

How the data were processed

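The authors deposited a table of read counts per region for each of 4 antibodies and a peak list per library. The tables also give the authors' log2 fold changes and p-values with a label, and the peak lists give the authors' fold enrichment as a ratio and −log10 p and q. Per the submitters' processing notes, Trim Galore 0.4.3, BWA 0.7.17, SAMtools 1.9, deepTools 3.0.1, MACS2 and bedtools 2.26 were used, and hg19 and hg38 are named without a role. Peaks reach position 83246877 on chromosome 17 and 64329816 on chromosome 20, which fits hg38 lengths only, so coordinates are hg38, converted from 0-based starts. RefSeq names, spans and promoter sequences are of GRCh38.p14.

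Overlap meant at least 1 bp. edgeR 4.0.16 in R 4.3.3 (TMM, filterByExpr, quasi-likelihood test) was fitted to the whole count table of each antibody with all its times, with Benjamini-Hochberg adjustment and a threshold of 0.05, and was tested on simulated data. Levels used a pseudocount of 0.5 for log2 values. Differences between sets of sites were taken within each library and tested for Jun over libraries by exact sign flips (CTCF levels are described only). Regions named are the 6 of highest CTCF level, the 6 promoter members of highest CTCF level, up to 2 per gene list, and the 3 largest changes each way of Jun (called, libraries not overlapping) and of CTCF at 72 h against 0 h; the other promoter sequences shown were picked for holding the motif core. One region that this rule names is not reported here. The members and lists were chosen with earlier results of these data known. Alternatives were DESeq2 1.42.0, total counts, other filters, overlaps and peak thresholds, a replicate block, only the groups compared, and leaving out each library.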

Additional observations from a re-analysis of the deposited data

How the results depend on the processing

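The number of members was 337 when peaks had to cover 50% of the region and 424 with a CTCF −log10 q of at least 10, and 1584 to 2808 with 1 library left out. Members with a called Jun change at 6 h against 0 h were 12 with DESeq2, 12 with a mean count of at least 50, 8 with 50% coverage, 8 with the stricter CTCF peaks and 11 to 26 with 1 library left out. At 72 h against 0 h they were 67 with total counts, 25 with DESeq2, 14 with a mean count of at least 50, 14 with 50% coverage, 14 with stricter peaks and 22 to 53 with 1 library left out. At 72 h against 6 h they were 8, 9, 6 and 6 with DESeq2, the count filter, 50% coverage and stricter peaks, and 1 to 22 with 1 library left out. The stricter site rules and the count filter test fewer regions; the cause of the other shifts was not tested.

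CTCF calls at 6 h against 0 h were 0 with total counts, 0 with DESeq2, 0 with only the groups compared, 0 with 50% coverage and 0 to 25 with 1 library left out; 98, 38 and 73 members had an unadjusted p under 0.05 in the first 3. Between 0 and 72 h they were 29 with total counts, 19 with DESeq2, 22 with a mean count of at least 50, 213 with only the groups compared, 21 with 50% coverage, 22 with stricter peaks and 0 to 205 with 1 library left out. Between 6 and 72 h they were 19, 2, 3, 1 and 0 with total counts, DESeq2, only the groups compared, 50% coverage and stricter peaks, and 1 to 73 with 1 library left out. Rad21 calls were 35 with total counts, 3 with DESeq2, 0 with a mean count of at least 50 (1 region tested), 0 with 50% coverage, 4 with stricter peaks and 4 to 17 with 1 library left out.

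The labels do not say what same-numbered replicates share. The correlation between times of the difference between replicates was −0.0084 to 0.12 over the antibodies, and 0.079 to 0.12 for CTCF. With the replicate block, Jun calls were 22, 40 and 17 at 6 h against 0 h, 72 h against 0 h and 72 h against 6 h. CTCF calls were 6, 154 and 33, against 1, 67 and 7 without the block, and Rad21 calls 22.

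Without 1 library the differences from cohesin sites were −0.80 to −0.77 (CTCF level, log2), −1.07 to −0.82 (Jun level) and −32.9 to −30.8 points (Jun share), where 5 libraries allow no p below 0.0625. With a Rad21 peak in at least 1 library as the definition they were −0.33, −0.38 and −8.62, and against sites with exactly 1 such library, added after the data were seen, −0.09, −0.038 (no longer past the threshold) and −0.77 points (no longer past it). The 3 differences from cohesin sites kept their sign in these alternatives, while the balance of rises and falls turned with the scaling and the count filter as given above for Jun, CTCF and Rad21. With a mean count of at least 50, 9 of 14 Jun calls at 72 h against 0 h were rises, and 5 of 9 at 72 h against 6 h. Counts of 15 to 21 Rad21 reads at the median member region limit what can be seen there.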

Other observations

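In the 12 member windows with the CTCF core, the centre of the core lay at a median of 92.5 bp to the right of the CTCF summit in genome coordinates, the summit being the median over the 6 libraries. It lay 80 to 130 bp to the right at 7 of them and as far to the left at none, a range chosen after the values were seen. At ERMN it lay 1 bp from the summit, at SLC14A2 98 bp, at CCDC175 87 bp, at LOC105372694 109 bp and at MC5R −149 bp. The farthest was at LOC124904888, at −539.5 bp, where the core lay in the promoter window but outside the member. Of 9 cohesin sites with the core, none was in that range to the right and 2 to the left, and of 76 acetylated stable sites 10 and 13. No test was made of these offsets.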
